A study of Mus musculus with 9 samples.

Results

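The transforming growth factor beta (TGF-beta) and bone morphogenetic protein (BMP) genes were taken from the count table by name: TGF-beta, latent TGF-beta binding protein, BMP, growth differentiation factor (Gdf), Smad and Smurf symbols, together with Grem1, Bmper, Nog, Chrd, Eng, Acvrl1, Bambi, Id1, Id2, Id3, Ski and Skil. A match was found for 62 of the 21983 listed genes, and 56 of these had at least 10 counts in at least 3 of the 9 libraries. Those 56 genes are described here. All but Gdf2 also passed the filter of the statistical fit, so that 55 were tested, and 47 had at least 50 counts in at least 3 libraries. Near the count threshold, Gdf2 reached it in 3 libraries and Tgfbr3l in 4, whereas Bmp8a and Bmp10 reached it in 2 and were left out, as were Bmp8b, Bmp15, Gdf1 and Gdf7.

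Lung RNA of the inbred mouse strain BALB/c was sequenced in 3 groups of 3 libraries. Control mice were normal animals given saline by mouth, asthma mice carried a chronic asthma model and were given saline, and BSYQF mice carried the model and received a herbal mixture of Chinese medicine, the Bu-Shen-Yi-Qi formula. Dosing began on day 14, with 20 g of raw herbs per kg body weight for the formula, which was given for 6 weeks, and the series title names airway remodelling as the process of interest. The sources used here do not give how the model was induced, the age of the mice, or whether each library is a mouse of its own. The p-values therefore reflect library-to-library spread, part of which may be technical.

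Ligands of this superfamily are secreted and act through paired type I and type II serine/threonine kinase receptors. TGF-beta itself is stored in the matrix as a latent complex held by the Ltbp proteins, and its receptors Tgfbr2 and Tgfbr1 signal to Smad2 and Smad3. BMPs signal through Bmpr2 with a type I receptor to Smad1, Smad5 and Smad9, and both branches share Smad4. In endothelium the type I receptor is Acvrl1 (ALK1), with endoglin (Eng) as co-receptor, and Smad6, Smad7 and the Id genes are textbook feedback and target genes. In lung the TGF-beta branch is known for its part in matrix deposition, and loss-of-function mutations of Bmpr2, Acvrl1 and Eng are known from inherited vascular disease.

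The libraries held 16286385 to 22819199 counts each. Levels are given as CPM (counts scaled to the size of the library) and changes as log2 fold changes ± SE. A gene was called where edgeR's quasi-likelihood test, adjusted by Benjamini-Hochberg across 14739 genes, gave a p under 0.05. All lists of lung cell markers were detected, with summed alveolar type 2 markers at 21810 CPM or more in every library. Several marker lists differed between groups, and their part in the results was not tested. The sum of the 10 endothelial markers was 3875 to 5408 CPM in control, 2732 to 4347 in asthma and 3779 to 3849 in BSYQF, with none at 0, and 1 of the 10 (Kdr) was called lower in asthma. The sum of the 8 fibroblast markers was 4401 to 5204, 1358 to 3488 and 2768 to 3676 CPM in the same order, with 2 of 8 called lower in asthma. The 9 macrophage markers summed to 292 to 391, 861 to 958 and 584 to 1024 CPM, and 6 of 9 were called higher in asthma. Cardiac muscle markers, which mark pulmonary vein and heart tissue, summed to 447 to 1021, 127 to 237 and 453 to 1409 CPM, with 8 of 9 called lower in asthma. Adipocyte markers summed to 66.7 to 354, 2.49 to 15.3 and 61.8 to 324 CPM, with 5 of 6 called lower. In bulk tissue, fewer cells of a type and less RNA per cell cannot be told apart.

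In asthma lung the receptor genes Acvrl1, Eng and Bmpr2, the BMP-type Smad9 and the inhibitory Smad6 and Smad7 fell. The latent TGF-beta binding gene Ltbp4 and the ligand genes Bmp6, Bmp3 and Gdf10 also fell, while Tgfbi, Tgfbr1 and Gdf3 rose. Of the 55 genes tested, 17 (30.9%) were called in asthma against control, compared with 12.7% of all genes. Of these, 14 (25.5%) were lower, compared with 4.45% of all genes, and 3 (5.45%) were higher, compared with 8.23%. Of the higher genes, Gdf3 passed the filter on low counts only through the groups where it is high. The log2 fold change was negative for 43 of the 55, with a median of -0.35, whereas the median over all genes was 0.02. The 3 asthma libraries lay below all 3 controls in 26 genes (47.3%, against 18.4% of all genes) and above them in 5 (9.09%, against 22%). The calls depended on single libraries: 2 genes were called without control replicate 1, 2 or 3 or without asthma replicate 2, 1 without asthma replicate 1, and 8 without BSYQF replicate 2, while calls over all genes fell from 1869 to between 171 and 944 in those fits. Without asthma replicate 3, 22 were called, among 4262 of all genes. Without BSYQF replicate 1 or 3, 21 and 16 were called, among 2646 and 2232 of all genes. Over the 9 fits that each left out 1 library, Tgfbi was called in all 9, Ltbp4 in 8, and each of the other called genes in 2 to 4. The authors' deposited table of this comparison lists Tgfbi (log2 fold change 1.87), Gdf3 (4.12), Ltbp4 (-1.58), Smad9 (-1.63) and Bmp6 (-1.33).

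**Figure D1:**
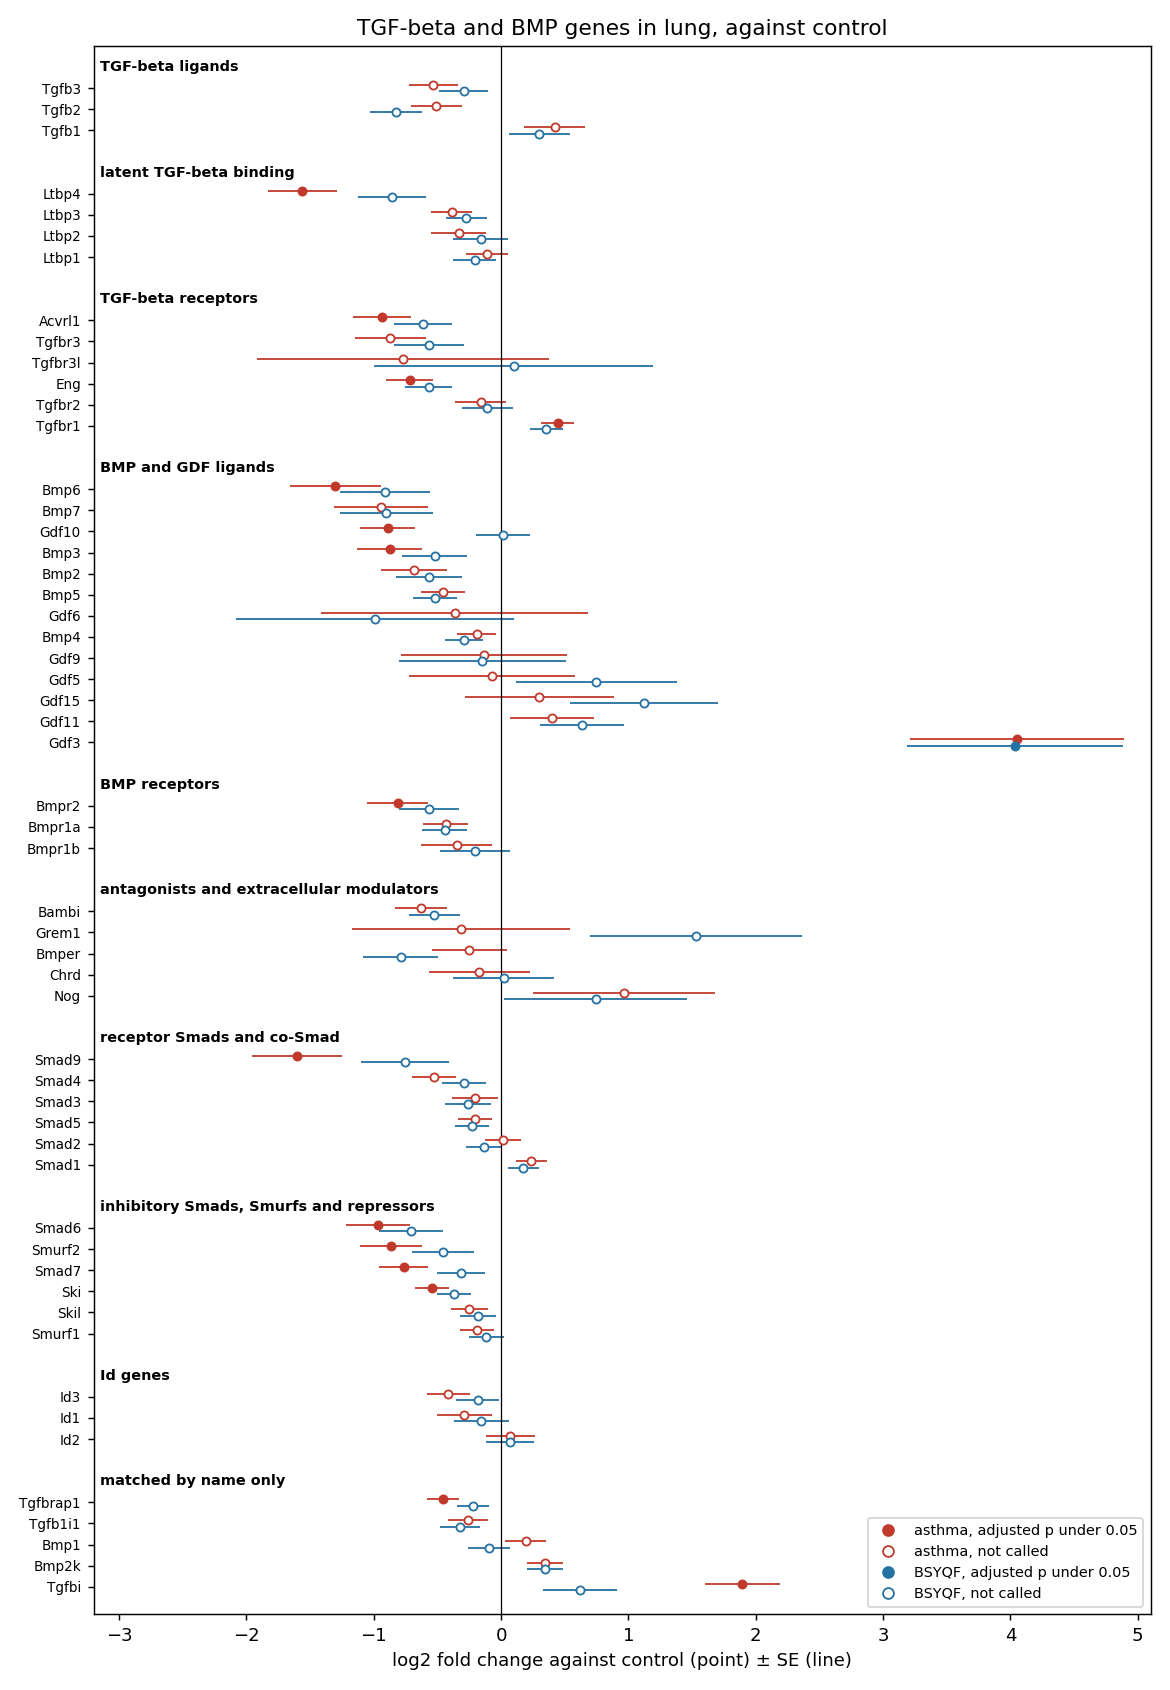
Log2 fold change against control (point) ± SE (line) for the genes shown, grouped by role, in asthma (red) and BSYQF (blue); filled points were called at an adjusted p under 0.05. Most red points lie left of 0, and the 1 filled blue point is Gdf3.

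Per kb of exon, which allows levels to be compared between genes, the ALK1 receptor Acvrl1 stood at 183 ± 32.2 CPM per kb (SD, n = 3) in control lung, its co-receptor Eng at 174 ± 20.3, Smad6 at 143 ± 6.64 and Id1 at 134 ± 25.0. Acvrl1 and Eng did not differ beyond their spread, nor did Smad6 and Id1. Ltbp4 followed at 118 ± 12.5 CPM per kb, and Id3, Bmp6 and Bmpr2 stood next at 104, 67.1 and 53.5. The genes at the low end in control were Gdf6 at 0.199 and Gdf3 at 0.0388 CPM per kb. In asthma lung the per-kb level of Acvrl1 was 96.0 ± 26.7, of Eng 106 ± 18.6 and of Smad6 73.2 ± 30.2, so that Id1, at 110 ± 28.6, had the highest mean of these 4 genes, within the spread of Eng and Acvrl1.

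**Figure D2:**
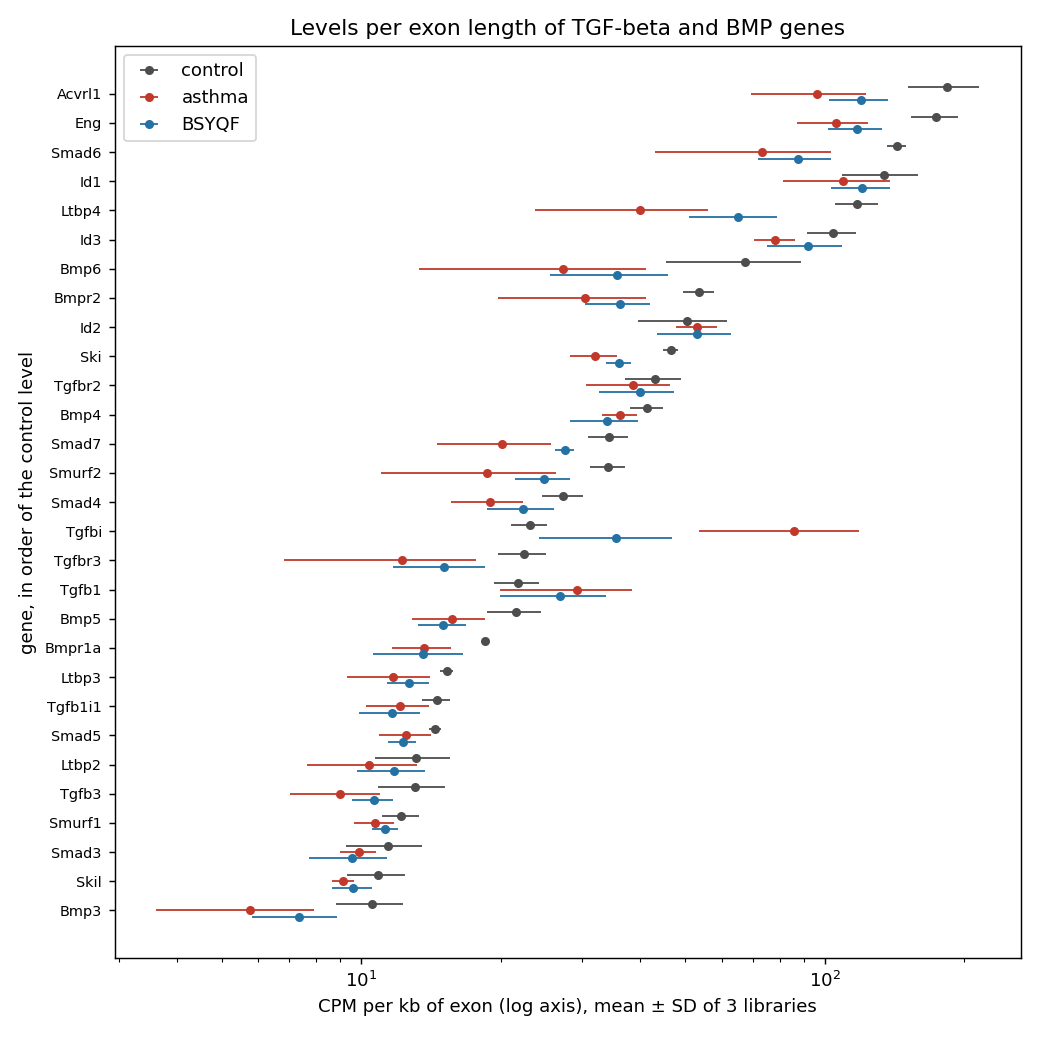
Level per kb of exon (log axis, mean ± SD of 3 libraries) of genes with high control levels, in the order of the control level, for control (grey), asthma (red) and BSYQF (blue). Acvrl1 and Eng are at the top in control, and Tgfbi stands out with an asthma mean far above that of control. The asthma means of Tgfb1 and Id2 are also above control, by less.

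Acvrl1 lies on chromosome 15 from 101128522 to 101145336 (plus strand, mm10, GENCODE annotation). Its level was 755, 930 and 659 CPM in the control libraries, 399, 301 and 528 in asthma and 517, 433 and 581 in BSYQF. All 6 libraries of mice with the model were below all 3 controls, and asthma and BSYQF overlapped. The change in asthma against control was -0.93 ± 0.23 (adjusted p = 0.0305).

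Eng, on chromosome 2 from 32646595 to 32682669, encodes the co-receptor that presents ligand to ALK1. It stood at 650, 798 and 661 CPM in control, 427, 353 and 504 in asthma and 514, 401 and 509 in BSYQF, again with every control library above all others. Its change was -0.72 ± 0.19 in asthma against control (adjusted p = 0.0359). Bmpr2, the BMP type II receptor (chromosome 1, 59763400 to 59879014), stood at 916, 1048 and 922 CPM in control, 460, 414 and 769 in asthma and 531, 710 and 710 in BSYQF. Asthma replicate 3 was the nearest of its group to control, and the groups did not overlap (-0.81 ± 0.24, adjusted p = 0.049). The type I BMP receptors were not called: Bmpr1a had -0.44 ± 0.18 (adjusted p = 0.111) and Bmpr1b -0.35 ± 0.28 (adjusted p = 0.397).

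Downstream of these receptors, Smad9 (chromosome 3, 54755582 to 54801257) had the lowest log2 fold change of the 55 genes in asthma. Its level was 19.4, 22.4 and 17.8 CPM in control, 5.77, 4.10 and 9.59 in asthma, and 9.14, 8.31 and 17.8 in BSYQF. Every asthma library was below every control library, and BSYQF replicate 3 stood at the lower edge of the controls. The change in asthma against control was -1.60 ± 0.35 (adjusted p = 0.0223). The other receptor Smads and the shared Smad4 were not called. Smad4 had -0.53 ± 0.17 (adjusted p = 0.0648), Smad5 -0.20 ± 0.13, Smad3 -0.21 ± 0.18, Smad1 0.24 ± 0.12 and Smad2 0.02 ± 0.14.

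Smad6 and Smad7, which block receptor Smads and are induced by the pathway, both fell. Smad6 (chromosome 9, 63953076 to 64022059) stood at 448, 483 and 444 CPM in control, 171, 187 and 346 in asthma and 295, 322 and 224 in BSYQF. Smad7 stood at 147, 172 and 145 CPM in control, 98.1, 63.1 and 111 in asthma and 124, 130 and 118 in BSYQF. For both genes every control library was above every library with the model, and for Smad7 the BSYQF libraries also lay above all 3 asthma libraries. The changes in asthma were -0.97 ± 0.25 for Smad6 (adjusted p = 0.0375) and -0.77 ± 0.19 for Smad7 (adjusted p = 0.0327). Smurf2, a ubiquitin ligase that acts with Smad7 on the receptors, stood at 201, 231 and 198 CPM in control and 94.8, 81.5 and 169 in asthma, and Ski, a repressor of Smad complexes, at 249, 269 and 258 and at 167, 164 and 201. Neither gene overlapped between the groups. Smurf2 fell by 0.87 ± 0.24 on the log2 scale (adjusted p = 0.044), and Ski by 0.54 ± 0.14 (adjusted p = 0.0318). Their relatives Smurf1 and Skil were not called (-0.19 ± 0.13 and -0.25 ± 0.14).

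**Figure D3:**
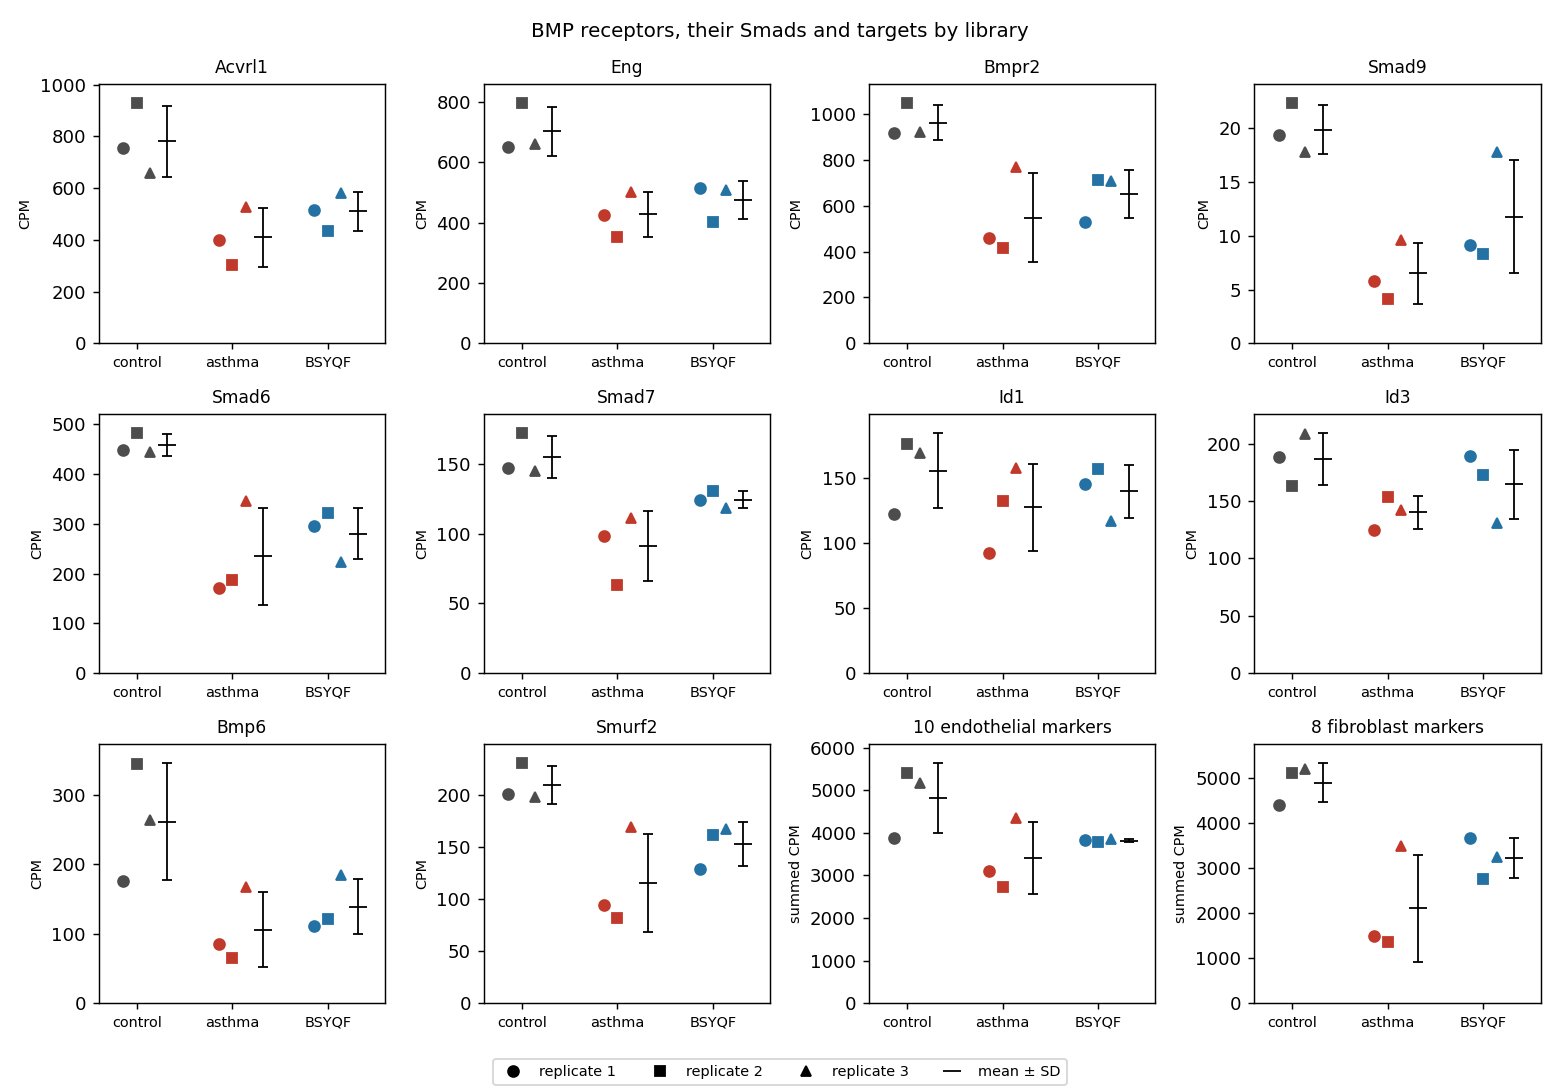
CPM per library of 10 genes of the BMP branch, and the summed CPM of the 10 endothelial and 8 fibroblast markers; symbols are replicates and bars mean ± SD of 3 libraries. Acvrl1, Eng, Bmpr2, Smad6 and Smad7 lie lower in all asthma libraries than in all controls, and both marker sums are also lower on average in asthma.

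Id1, Id2 and Id3 are direct BMP target genes, and none of the 3 was called. Id1 stood at 122, 175 and 169 CPM in control and 91.9, 132 and 158 in asthma, with overlap between the groups (-0.29 ± 0.21, adjusted p = 0.362). Id3 stood at 188, 164 and 209 CPM in control and 125, 153 and 142 in asthma, below control in every library, without passing the test (-0.41 ± 0.17, adjusted p = 0.112). Id2 had 0.07 ± 0.19.

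The levels of these genes were also set beside the endothelial markers, library by library, a ratio chosen after the values were seen and given as a description without a test. Per 100 CPM of summed endothelial markers, Smad6 stood at 8.59 to 11.6 CPM in control and 5.49 to 7.95 in asthma, and Smad9 at 0.345 to 0.501 and 0.15 to 0.221, without overlap. Bmpr2 had 17.8 to 23.7 and 14.8 to 17.7, also without overlap but with adjoining ranges. For Acvrl1 (12.7 to 19.5 and 11 to 12.8), Eng (12.8 to 16.8 and 11.6 to 13.7) and Smad7 (2.80 to 3.79 and 2.31 to 3.15) the ranges overlapped. The markers in the sum did not change alike: Kdr had -1.29 ± 0.35 and Tek -1.06 ± 0.34 in asthma against control, whereas Cldn5 had -0.04 ± 0.26, Car4 0.07 ± 0.22 and Egfl7 0.14 ± 0.27. The part of endothelial content in the lower levels was not tested.

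The 3 TGF-beta ligand genes were not called. Tgfb1 stood at 97.0, 121 and 112 CPM in control and 143, 196 and 103 in asthma, the groups overlapping (0.42 ± 0.24, adjusted p = 0.235). Per 100 CPM of summed macrophage markers, a sum that was itself higher in asthma, Tgfb1 stood at 24.8 to 41.4 CPM in control. In asthma this ratio was 11.9 to 20.4, lower without overlap, and it was not tested. Tgfb2 stood at 39.2, 46.0 and 47.4 CPM in control and 36.3, 25.9 and 30.9 in asthma, each asthma library below each control (-0.51 ± 0.20, adjusted p = 0.105). Tgfb3 showed the same arrangement, by a narrow margin, at 51.0, 36.5 and 44.8 against 31.8, 23.2 and 36.4 CPM (-0.53 ± 0.19, adjusted p = 0.082).

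Ltbp4, on chromosome 7 from 27305136 to 27337692, encodes a matrix protein that binds latent TGF-beta and takes part in elastic fibre assembly. It stood at 844, 752 and 682 CPM in control, 220, 177 and 375 in asthma and 379, 356 and 522 in BSYQF. All libraries with the model were below control, and the change in asthma was -1.56 ± 0.27 (adjusted p = 0.0102). The call was lost without asthma replicate 1 (adjusted p = 0.0597, with 5.88e-07 to 0.0597 over all alternatives). Per 100 CPM of summed fibroblast markers, Ltbp4 stood at 13.1 to 19.2 CPM in control and 10.7 to 14.7 in asthma, with overlap. A single marker, Inmt, gave 2727 to 3541 CPM of that sum in control and 646 to 2326 in asthma, so the ratio depends largely on Inmt. Ltbp1, Ltbp2 and Ltbp3 were not called (-0.11 ± 0.17, -0.33 ± 0.22 and -0.39 ± 0.16).

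Tgfbr1, the TGF-beta type I receptor (chromosome 4, 47353222 to 47414931), rose. It stood at 67.3, 66.1 and 61.3 CPM in control, 85.5, 86.2 and 93.4 in asthma and 72.9, 90.8 and 85.6 in BSYQF, so that all libraries with the model were above control (0.45 ± 0.13, adjusted p = 0.0475). Tgfbr1 was called in 2 of the 9 leave-one-out fits and in 3 of the 7 other alternatives. Its partner Tgfbr2 overlapped between groups (-0.16 ± 0.20). The co-receptor betaglycan, Tgfbr3, stood at 167, 138 and 136 CPM in control and 54.5, 65.2 and 121 in asthma, below control in every library but short of the threshold (-0.87 ± 0.28, adjusted p = 0.0598).

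Tgfbi, a secreted matrix protein named for its induction by TGF-beta, had the smallest adjusted p of the 55 genes. The gene lies on chromosome 13 from 56609523 to 56639562. It stood at 91.3, 92.0 and 78.1 CPM in control, 405, 383 and 184 in asthma and 108, 183 and 110 in BSYQF. Every asthma library was above every control, and asthma replicate 3 was the lowest of its group. The change was 1.90 ± 0.30 (adjusted p = 0.00873). Per 100 CPM of summed macrophage markers, Tgfbi stood at 23.4 to 31.4 CPM in control, 21.4 to 46.0 in asthma and 10.6 to 23.0 in BSYQF, and the control and asthma ranges overlapped.

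**Figure D4:**
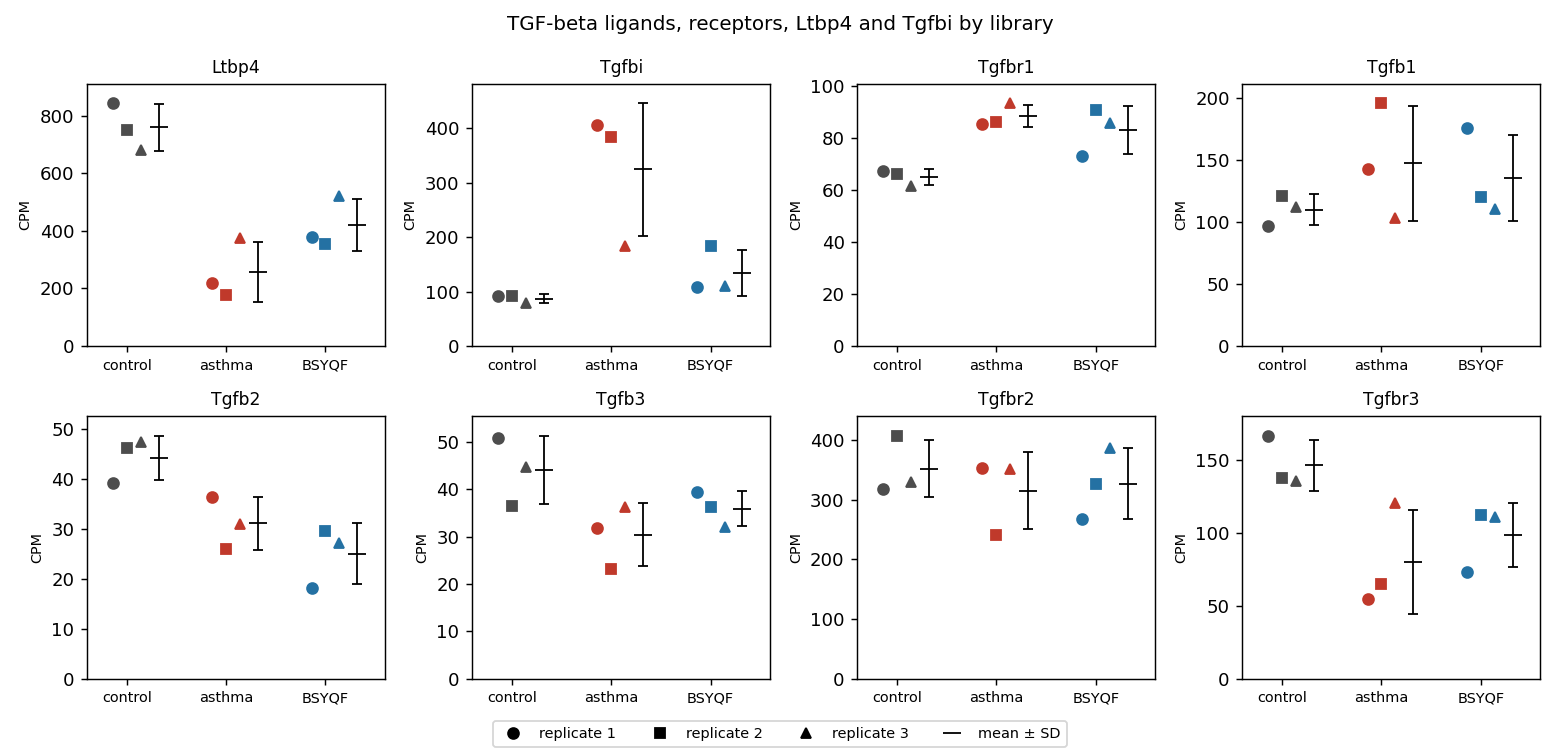
CPM per library of Ltbp4, Tgfbi, the TGF-beta ligand genes and their receptors, with mean ± SD of 3 libraries. Ltbp4 is lower in all libraries with the model, Tgfbi is highest in asthma replicates 1 and 2, and Tgfbr1 is higher in all 6 libraries with the model than in control.

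Of the 13 BMP and Gdf ligand genes tested, 3 fell and 1 rose in asthma, where 4.45% of all genes fell and 8.23% rose. Bmp6, an iron-regulating BMP, stood at 176, 345 and 265 CPM in control and 85.9, 64.8 and 168 in asthma (-1.30 ± 0.36, adjusted p = 0.0417). Bmp3, a BMP known as an antagonist of other BMPs in bone, stood at 67.7, 74.0 and 92.4 CPM in control and 29.7, 37.6 and 60.2 in asthma (-0.87 ± 0.25, adjusted p = 0.0475). Gdf10, also called Bmp3b, stood at 15.8, 16.4 and 17.6 CPM in control, 7.13, 7.73 and 11.9 in asthma and 16.4, 17.9 and 16.0 in BSYQF (-0.89 ± 0.22 in asthma, adjusted p = 0.0305). In all 3 genes asthma and control did not overlap in CPM. Per 100 CPM of summed fibroblast markers, however, Gdf10 stood at 0.321 to 0.359 CPM in control and 0.342 to 0.569 in asthma, and Bmp3 at 1.45 to 1.77 and 1.73 to 2.77, so that the ranges overlapped and reached higher in asthma. These ratios, too, depend largely on Inmt, and the markers did not fall alike. In asthma against control Inmt had -1.38 ± 0.43, Col13a1 -0.81 ± 0.26 and Dpt -0.55 ± 0.16. The part of fibroblast content in these levels was not tested. Per 100 CPM of endothelial markers, Bmp6 stood at 4.53 to 6.38 and 2.37 to 3.85, without overlap. For Gdf10 the BSYQF libraries overlapped with control and were all above asthma.

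Gdf3 had 5 counts in the 3 control libraries together, 91 in asthma and 84 in BSYQF, so its fold change rests on few reads. No control library reached 10 counts, and the gene entered the tests only through the groups where it is high, so it had to differ, and its values are given as a description. It stood at 0, 0.175 and 0.106 CPM in control, 1.13, 1.81 and 1.97 in asthma and 1.94, 2.32 and 0.625 in BSYQF. All 6 libraries with the model were above the controls, with a fitted change of 4.05 ± 0.84 in asthma (adjusted p = 0.0186), which supports nothing beyond these counts. Per 100 CPM of summed macrophage markers, Gdf3 stood at 0 to 0.0600 CPM in control and 0.129 to 0.229 in asthma, without overlap. The other ligand genes named here were not called: Bmp2 -0.69 ± 0.26, Bmp4 -0.19 ± 0.15, Bmp5 -0.46 ± 0.17, Bmp7 -0.94 ± 0.37 and Gdf15 0.30 ± 0.59. The ligands of ALK1 itself had few counts: Gdf2 (BMP9) had 34, 13 and 15 counts in the 3 groups. Bmp10, which fell outside the count rule, had 117, 0 and 423 counts, of which 423 were in BSYQF replicate 3. That library also had the highest sum of cardiac muscle markers, 1409 CPM, and 442 CPM of the atrial peptide gene Nppa. Of the 117 control counts of Bmp10, however, 116 were in control replicate 2, whose cardiac sum of 447 CPM was the lowest of the controls. Control replicate 3 and BSYQF replicate 2, with cardiac sums of 1021 and 600 CPM, had 0 Bmp10 counts.

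Genes of antagonists and a decoy receptor were followed next, and those named here were not called. Bambi, a decoy receptor, had -0.63 ± 0.20 (adjusted p = 0.0614), Bmper -0.25 ± 0.29, Chrd -0.17 ± 0.39, Grem1 -0.32 ± 0.86 and Nog 0.97 ± 0.71. Of the genes matched by name alone, Tgfbrap1, whose protein binds TGF-beta receptors and takes part in vesicle tethering, fell by 0.45 ± 0.13 on the log2 scale (adjusted p = 0.0418), and the protease gene Bmp1 had 0.19 ± 0.16. The level of Tgfbrap1, at 82.0, 90.0 and 75.9 CPM in control and 65.4, 56.6 and 58.9 in asthma, did not overlap. The remaining genes (Gdf5, Gdf6, Gdf9, Gdf11, Tgfbr3l, Tgfb1i1 and Bmp2k) were not called in any of the 3 comparisons.

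**Figure D5:**
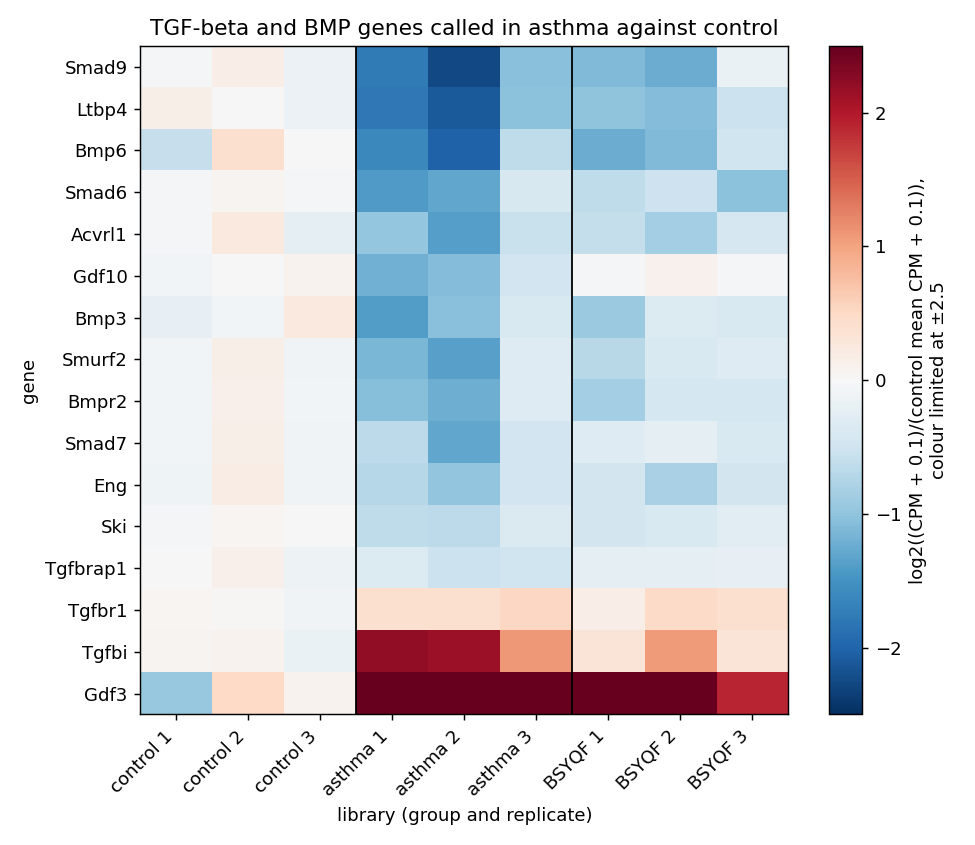
Log2 ratio of each library's CPM to the control mean for genes called in asthma against control, with a small constant added to each level and colours limited as the scale shows. Asthma replicates 1 and 2 have the strongest colours in most genes, asthma replicate 3 is paler, and Gdf10 in BSYQF is near the colour of control.

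Promoter windows were read from RefSeq (GRCm38.p6) to show the sequence upstream of genes that fell or rose together. The windows kept for the motif counts below covered 36 of the 56 genes and 12 of the 17 called. Each sequence ends just before the first base annotated as the gene in RefSeq or GENCODE, is written from upstream to downstream on the strand of the gene, and has matches to GGCGCC or GGAGCC (BMP-responsive GC boxes) or CAGACA (a Smad-binding box), on either strand, in capitals. Smad6, Eng and Gdf10 fell in asthma, and Tgfbi and Tgfbr1 rose.
Smad6, chr9:64022086-64022309, minus strand: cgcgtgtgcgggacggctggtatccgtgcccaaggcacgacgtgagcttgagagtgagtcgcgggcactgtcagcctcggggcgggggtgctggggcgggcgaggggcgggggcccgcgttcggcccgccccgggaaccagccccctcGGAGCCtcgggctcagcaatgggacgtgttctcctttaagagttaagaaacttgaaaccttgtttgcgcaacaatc
Eng, chr2:32646345-32646594, plus strand: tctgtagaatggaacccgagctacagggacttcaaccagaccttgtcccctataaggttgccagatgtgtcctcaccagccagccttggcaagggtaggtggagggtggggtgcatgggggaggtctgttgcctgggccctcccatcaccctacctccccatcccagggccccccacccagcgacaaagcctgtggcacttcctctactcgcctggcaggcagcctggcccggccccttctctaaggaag
Gdf10, chr14:33923337-33923586, plus strand: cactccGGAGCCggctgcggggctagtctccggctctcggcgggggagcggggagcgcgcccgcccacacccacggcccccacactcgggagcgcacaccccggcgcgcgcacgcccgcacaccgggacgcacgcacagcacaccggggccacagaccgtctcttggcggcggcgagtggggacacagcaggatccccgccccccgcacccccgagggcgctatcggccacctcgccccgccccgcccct
Tgfbi, chr13:56609336-56609522, plus strand: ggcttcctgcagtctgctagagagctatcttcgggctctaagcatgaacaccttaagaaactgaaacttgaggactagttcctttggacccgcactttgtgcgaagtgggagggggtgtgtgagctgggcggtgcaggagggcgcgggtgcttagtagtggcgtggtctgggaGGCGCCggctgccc
Tgfbr1, chr4:47352972-47353221, plus strand: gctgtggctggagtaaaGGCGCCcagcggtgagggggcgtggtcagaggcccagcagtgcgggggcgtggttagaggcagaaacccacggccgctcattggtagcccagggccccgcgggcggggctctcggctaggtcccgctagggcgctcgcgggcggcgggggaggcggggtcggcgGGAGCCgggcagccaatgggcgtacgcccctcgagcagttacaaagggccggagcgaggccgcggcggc

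The motifs were counted in the first 250 bases of each window of 300 bases, with chromosome 18 left out. That chromosome, which carries Bambi, Smad2, Smad4 and the called Smad7, was also left out of the numbers of genes with a window. GGCGCC was present in 56.2% of the 16 windows of called genes and 32.6% of the 46 windows of the TGF-beta and BMP genes. Its share over all 32851 windows was 9.59%. GGAGCC was present in 43.8%, 47.8% and 26.0%, and CAGACA in 6.25%, 13% and 17.1%. The median GC content of the same 250 bases was 71.0%, 64.2% and 52.4%, and the shares were not adjusted for it. GGCGCC reads the same on both strands, none of the 3 motifs contains another, and some genes have several windows. The Ltbp4 windows at 27333599 to 27333898 and 27333614 to 27333913 overlap, so the same bases were counted more than once. Some windows, such as those of Bmpr2 and Bmp6, lie inside the gene as GENCODE annotates it, and for these shares such bases were not cut off. A match is a description of the letters, and its absence says only that they are not in the bases searched.

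Genes of the wider pathway outside the name rule were followed as lists, beside the 8.23% of all genes that rose and the 4.45% that fell in asthma. Among 14 genes of latent TGF-beta activation and storage 2 rose and 0 fell in asthma: Thbs1, thrombospondin, which can activate latent TGF-beta (1.47 ± 0.37, adjusted p = 0.0324), and the elastic fibre gene Emilin1 (0.69 ± 0.18, adjusted p = 0.0392). This is 2 of 14 called, near the 12.7% of all genes. In 4 of the 14 asthma lay below all controls without a call, and in 1, the called Emilin1, above. The libraries of asthma and control thus overlapped for Thbs1. Over all genes 18.4% lay below and 22% above. Itgb6, a subunit of an activating integrin, had 0.84 ± 0.25 (adjusted p = 0.051). Among 10 activin and follistatin genes 2 rose and 1 fell. The activin subunit Inhba stood at 2.31 ± 0.955 CPM in control and 36.8 ± 16.5 in asthma (SD, n = 3; 3.99 ± 0.58, adjusted p = 0.00813), and its antagonist Fst rose by 1.23 ± 0.36 (adjusted p = 0.0479). The type II receptor Acvr2a fell by 0.76 ± 0.21 (adjusted p = 0.0411).

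Of 13 extracellular BMP modulators, 4 fell and 0 rose, with a median log2 fold change of -0.81, compared with 4.45% of all genes lower and a median of 0.02 over all genes. They were Chrdl1, a BMP antagonist (-2.19 ± 0.31, adjusted p = 0.00687), Twsg1 (-0.97 ± 0.17, adjusted p = 0.0108), the protease gene Tll1 (-2.02 ± 0.49, adjusted p = 0.0304) and Crim1 (-0.81 ± 0.21, adjusted p = 0.0368). Of 17 intracellular regulators 2 rose, the feedback gene Pmepa1 (1.12 ± 0.22, adjusted p = 0.0143) and the Smad corepressor Tgif1 (0.84 ± 0.19, adjusted p = 0.023), and Sptbn1, a spectrin, fell (-1.0 ± 0.29, adjusted p = 0.0475). Of 15 genes that TGF-beta is known to induce in mesenchymal cells, 1 was called, the collagen gene Col3a1 (0.90 ± 0.25, adjusted p = 0.0415), and Postn had -0.78 ± 0.24 (adjusted p = 0.0539). The log2 fold change was positive for 11 of the 15 and negative for 4, with a median of 0.33. Asthma lay above all controls in 5 of the 15, where 22% of all genes did, and below in 1, where 18.4% did. Of 14 genes that BMP9, BMP10 or BMP4 is known to induce in endothelium, 3 fell, and all 3 (Eng, Smad6 and Smad7) are among the genes described above. The median log2 fold change of the 14 was -0.60.

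With the formula, no TGF-beta or BMP gene was called against untreated asthma, where 0.00678% of all genes (1 gene) were called. With edgeR 5 of the 55 (9.09%) had an unadjusted p under 0.05, compared with 7.94% of all genes: Gdf10, Smad7, Ltbp4, Tgfbi and Smad9. DESeq2 called 2 of these genes and 123 of 14731 genes in all, and limma voom called 0 of either. The log2 fold change of BSYQF against asthma was positive for 35 of the 55, with a median of 0.12. BSYQF lay above all asthma libraries in 3 genes (5.45%, compared with 4.99% of all genes), Gdf10, Smad7 and Tgfbrap1, and below in 1 (1.82%, compared with 4.76%), Tgfbi.

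Among the 55 genes Tgfbi had the smallest adjusted p in BSYQF against asthma. Its change was -1.28 ± 0.29 (adjusted p = 0.293), and DESeq2 called it at 0.00608 (0.00608 to 0.982 over 16 alternatives). BSYQF replicate 2, at 183 CPM, was next to asthma replicate 3, at 184. Gdf10 had 0.91 ± 0.22 (adjusted p = 0.321), with 0.0161 by DESeq2 and 0.0161 to 0.916 over its alternatives. Without asthma replicate 3, 3 of the 55 were called, among 114 of 14941 genes in all: Tgfbi (adjusted p = 0.0232), Gdf10 (0.0335) and Ltbp4 (0.0485). For Ltbp4 and Smad9 the changes with all libraries were 0.70 ± 0.27 and 0.85 ± 0.35 (adjusted p = 0.587 and 0.616), and for Smad7 0.45 ± 0.19 (0.619). The authors' deposited table of this comparison lists Tgfbi, with a log2 fold change of -1.27 and an adjusted p of 0.0195, and Grem1, with 1.87 and 0.716. By its name, this table has the same cutoffs as that of asthma against control, and its p cutoff is not on the adjusted p. Grem1 stood at 10.2 CPM in BSYQF replicate 3 and at 0.787 to 2.16 in the other libraries, and Gdf15 at 6.96 CPM in BSYQF replicate 1 and 1.30 to 2.32 elsewhere.

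The comparison of BSYQF with control shares its libraries with the other 2 comparisons. In it 1 of the 55 genes (1.82%) was called, compared with 1.67% of all genes. It was higher, as were 1.63% of all genes, and 0 were lower, compared with 0.0407% of all genes. The called gene was Gdf3, which entered the tests only through the groups where it is high. Its change was 4.04 ± 0.84 (adjusted p = 0.0388), and the call was lost with limma voom (0.123; range 0.000399 to 0.17 over 16 alternatives). It was also lost without any 1 of control replicates 1, 2 and 3, asthma replicates 1 and 2 and BSYQF replicates 1 and 2. The log2 fold change was negative for 40 of the 55, with a median of -0.23. BSYQF lay below all controls in 24 genes (43.6%, compared with 11.8% of all genes) and above in 6 (10.9%, compared with 13%). Among the genes below control, Tgfb2 stood at 18.1, 29.6 and 27.2 CPM in BSYQF (-0.82 ± 0.20, adjusted p = 0.0738), and Ltbp4 and Eng had -0.86 ± 0.27 and -0.57 ± 0.18 (adjusted p = 0.149 and 0.171). DESeq2, which called 826 of 14731 genes in all, called these 3 as well (adjusted p = 0.00836, 0.0291 and 0.0381; ranges 0.00836 to 0.243, 0.0279 to 0.371 and 0.0381 to 0.479). Of the pathway lists, Inhba was called higher in BSYQF than in control (2.89 ± 0.56, adjusted p = 0.0338).

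Counted by library, 33, 38 and 33 of the 55 genes lay below all 3 controls in asthma replicates 1, 2 and 3, and 12, 12 and 6 above. Over all genes the shares below were 38.2%, 39.8% and 28.8%, and those above 38.3%, 41.9% and 33.2%. In BSYQF replicates 1, 2 and 3, 33, 33 and 32 of the 55 lay below and 12, 8 and 9 above, compared with 38.1%, 30.7% and 30.8% of all genes below and 38.7%, 33.4% and 27.4% above. More of the 55 genes thus lay below than above in each of the 6 libraries. The median log2 ratio to the control mean was -0.35, -0.64 and -0.26 in the asthma libraries and -0.32, -0.25 and -0.25 in the BSYQF libraries. The same median over the endothelial markers was -0.50, -0.87 and -0.14 in asthma and -0.59, -0.31 and -0.38 in BSYQF. Asthma replicate 2 was the lowest library on both measures.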

How the data were processed

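Per the labels' protocols, Trizol-isolated lung RNA (3 µg per library) was made into NEBNext Ultra libraries. Per the submitters' processing notes, the tools were FastQC, cutadapt, STAR, HTSeq and DESeq2, on mm10. The sources used here give no versions, annotation or strand setting. The counts deposited by the authors are whole numbers per gene without normalization and were used for all tests. They also deposited, per the file headers, tables of 3 comparisons with log2 fold changes and p-values, which list part of the genes. Another 36 deposited columns of values per library were not used. Counts were filtered with filterByExpr, scaled by TMM and tested in edgeR 4.0.16 (R 4.3.3; robust glmQLFit, glmQLFTest) in 1 model of 3 groups without a block. The SE is the log2 fold change divided by the square root of F. limma 3.58.1, DESeq2 1.42.0, other scalings and filters, and leaving out each library were alternatives. The fit was run on simulated counts with the same spread for all genes, which is no test of the calls in these data. Exon lengths and coordinates are from GENCODE vM21. Genes are named where called or on a fixed list of pathway members. The members and lists were chosen with earlier results of these data known. 1 item among them is counted but not reported here.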

Additional observations from a re-analysis of the deposited data

How the results depend on the processing

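In asthma against control the alternatives that kept all libraries called 13 to 23 of the 55 genes, and 11 of the 17 were called in each of them. Leaving out 1 library gave 1 to 22 calls (1 to 3 higher, 0 to 20 lower); in BSYQF against asthma it gave 0 to 3 (0 to 2 higher, 0 to 1 lower), and in BSYQF against control 0 to 3 (0 to 1 higher, 0 to 2 lower). The cause of these shifts was not tested. DESeq2 called 2 genes in BSYQF against asthma (1 higher, 1 lower) and 4 in BSYQF against control (3 lower). In BSYQF against control, limma voom called 0 (0 higher) and a fit of only the 2 groups 2 (1 lower). Same-numbered libraries had correlations of -0.259 to 0.339 and not every library correlated best with its own number, so the numbers were not taken as pairs. With the replicate number as a block, 16, 0 and 0 genes were called in the 3 comparisons (0 higher in BSYQF against control, where Gdf3 had an adjusted p of 0.0616).

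The sign changed in 17 of 880 values in asthma against control, 56 of 879 in BSYQF against asthma and 19 of 879 in BSYQF against control, none of them of a gene called in the comparison concerned. In asthma against control, Smad2 changed to -0.0065 with DESeq2 size factors and -0.0069 with DESeq2, and Gdf3 to 0.0021 in BSYQF against asthma with only the 2 groups. Leaving out 1 library, the values in asthma against control ran from -0.2034 to 0.0331 for Ltbp1, -0.3548 to 0.2876 for Chrd, -0.5607 to 0.1357 for Grem1, -0.086 to 0.0635 for Smad2 and -0.0973 to 0.1779 for Id2. In BSYQF against asthma they ran from -0.3375 to 0.147 for Tgfb1, -0.1576 to 0.0089 for Tgfbr1, -0.365 to 0.3747 for Gdf3, -0.2182 to 1.2092 for Gdf15, -0.2069 to 2.3456 for Grem1 and -0.0439 to 0.3215 for Id1. In BSYQF against control they ran from -0.0367 to 0.0573 for Gdf10 and -0.5244 to 2.0135 for Grem1. With 3 libraries a group, a missed threshold does not show that levels were alike, and genes of few counts, such as Gdf3 and Grem1, are the least precise.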
